A study of Mus musculus with 6 samples.

Results

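The data describe 9 genes that mark inhibitory interneurons in the mouse cerebellum, read from an RNA-Seq table of whole cerebellum. The genes were taken by name, and the list was chosen with earlier results of these data known. The genes comprise 3 markers of molecular layer interneurons (*Kit*, *Lypd6*, and *Sorcs3*) and 3 transcription factors of cerebellar GABAergic neurons (*Tfap2a*, *Tfap2b*, and *Pax2*). The other 3 are genes of GABA synthesis and vesicle loading (*Gad1*, *Gad2*, and *Slc32a1*). All 9 were found in the table of 53715 genes, and all 9 were among the 16330 genes with enough counts to be tested. The samples were cerebella of male C57BL/6 mice that were 4 weeks old, 3 labelled WT (called control here) and 3 labelled slc39a8-KO (*Slc39a8*-NSKO). In *Slc39a8*-NSKO mice, a Cre recombinase under the synapsin I promoter deletes the floxed alleles of *Slc39a8*, a gene for a transporter of manganese, zinc, and iron, in neurons. For other assays the study names either *Slc39a8* fl/fl or wild-type mice as controls, and whether the control mice sequenced here carried floxed alleles is not given in the sources used here. The study states that this Cre can vary in expression between brain regions, and the deletion was not measured here by cell type. The comparison of the genotypes asks whether loss of the transporter from neurons altered the transcriptome of the cerebellum.

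Molecular layer interneurons, the basket and stellate cells, release GABA onto Purkinje cells and onto each other. They arise from progenitors that express *Pax2* as they leave the cell cycle, and mature cells keep AP-2 transcription factors and the receptor tyrosine kinase *Kit*. GABA is made from glutamate by the decarboxylases GAD67 (*Gad1*) and GAD65 (*Gad2*) and is loaded into vesicles by the transporter VGAT (*Slc32a1*). Purkinje cells and Golgi cells also use GABA, so these 3 genes report on all inhibitory neurons of the tissue and not on interneurons alone.

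Upstream sequences are shown for *Kit*, *Gad2*, and *Gad1* because 2 of the markers encode AP-2 factors and the study followed genes that respond to cAMP through a CRE. Each is the run of 250 bases before a RefSeq start site on the plus strand of GRCm38.p6, at chr5:75574737-75574986 for *Kit*, chr2:22622077-22622326 for *Gad2*, and chr2:70561879-70562128 for *Gad1*. These start sites differ from the starts of the annotated genes given below. The *Gad1* window lies inside the annotated gene, which starts at 70553072. The *Kit* and *Gad2* windows reach past the annotated starts at 75574916 and 22622205. Capitals mark the AP-2 palindrome GCCNNNGGC and the CRE half-site TGACG, searched on both strands.
Kit: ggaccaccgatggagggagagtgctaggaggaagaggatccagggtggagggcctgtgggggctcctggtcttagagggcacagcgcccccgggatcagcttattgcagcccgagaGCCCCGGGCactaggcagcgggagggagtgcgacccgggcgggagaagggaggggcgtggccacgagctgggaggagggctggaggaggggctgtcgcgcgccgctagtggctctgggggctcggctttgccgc
Gad2: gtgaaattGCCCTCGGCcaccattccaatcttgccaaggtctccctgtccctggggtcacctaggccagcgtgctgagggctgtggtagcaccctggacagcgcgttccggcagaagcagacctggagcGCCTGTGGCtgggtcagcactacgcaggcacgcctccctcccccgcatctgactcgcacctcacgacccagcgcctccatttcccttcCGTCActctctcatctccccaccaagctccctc
Gad1: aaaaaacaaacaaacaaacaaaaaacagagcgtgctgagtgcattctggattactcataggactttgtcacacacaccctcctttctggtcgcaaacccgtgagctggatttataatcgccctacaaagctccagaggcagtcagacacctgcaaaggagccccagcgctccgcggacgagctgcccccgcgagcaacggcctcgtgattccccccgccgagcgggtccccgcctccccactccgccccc

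The palindrome starts at position -134 from the start site of *Kit* and at -242 and -121 in *Gad2*, and the half-site, on the minus strand, lies at -33 in *Gad2*. *Gad1* held neither. The 9 genes have 13 such windows, of which 4 (from *Kit*, *Pax2*, and *Gad2*) held the palindrome, against 13.7% of 32851 windows of all genes, and the pair of *Kit* windows overlap almost fully. The half-site, which is also part of the full CRE, was in 2 of the 13 windows (*Tfap2b* and *Gad2*), against 17.8% of all windows. The full CRE, TGACGTCA, was in 0 of the 13 and in 1.55% of all windows. These are matches of letters in a short window, and binding was not measured.

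The counts on genes ranged from 14431260 to 20844267 per mouse. *Slc39a8*, the targeted gene, was covered by 44 to 99 counts per control mouse and 38 to 41 per *Slc39a8*-NSKO mouse. Its level was 4.78, 3.20, and 2.83 CPM (counts scaled to a common library size by edgeR's TMM method) in control and 1.90, 2.05, and 2.18 CPM in *Slc39a8*-NSKO mice, without overlap. The fold was 0.561 with a 95% interval from 0.394 to 0.799 (unadjusted p = 0.00359, adjusted p = 0.534 by edgeR's test), so that it was lower in the direction of the labels without passing the threshold over all genes. The unadjusted p was below 0.05 in all 13 refits, and without control mouse 1 the log2 fold change was −0.56 in place of −0.83. The tissue label was checked against markers of other cells. The granule cell genes *Gabra6* and *Cbln1* and the Purkinje cell genes *Calb1* and *Pcp2* were abundant in every mouse. Of 7 forebrain interneuron genes, 5 had at most 3 counts in any mouse, and the interneuron fate gene *Dlx2* had 0 counts in every mouse, which allows up to 3 counts per mouse (counting error only). Of the same list, *Lhx6* had at most 5 counts in a mouse, but *Adarb2* was not low, at 16.1 to 23.7 CPM per mouse.

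None of the 9 markers was called higher or lower. In edgeR's quasi-likelihood test, 0 of 9 passed an adjusted p of 0.05, against 16 of 16330 genes (0.098%) in the whole table, and 0 of 9 had an unadjusted p below 0.05, against 5.39% of all genes. DESeq2 and limma-voom also called 0 of the 9. The values of the genotypes overlapped for all 9, while they did not overlap in 10.3% of all genes tested. The log2 fold changes (*Slc39a8*-NSKO over control) lay between −0.13 for *Tfap2a* and 0.17 for *Sorcs3*, with 5 above and 4 below 0 and a median of 0.04, against a median of 0.0011 over all genes tested. A p that misses the threshold does not show equal levels, so the 95% interval of each difference is given with each gene. In whole tissue, fewer cells of a type and less RNA per cell cannot be told apart.

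*Kit* encodes the receptor that molecular layer interneurons carry for Kit ligand, and it lies on the plus strand of chromosome 5 from 75574916 to 75656722. Control mice 1 to 3 had 204, 189, and 197 CPM, and *Slc39a8*-NSKO mice 1 to 3 had 196, 196, and 224 CPM. The first 2 *Slc39a8*-NSKO mice lay inside the control range, and only the third lay above it. The means were 197 ± 7.17 and 205 ± 16.0 CPM (SD, n = 3 each), a fold of 1.04 with a 95% interval from 0.953 to 1.14 (adjusted p = 0.994 from edgeR's test). Without *Slc39a8*-NSKO mouse 3 the log2 fold change was −0.0038.

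*Lypd6* encodes a protein anchored to the outer face of the cell membrane that acts on nicotinic receptors, and it lies on chromosome 2 from 50066429 to 50193569. Its CPM values were 27.3, 24.3, and 29.5 in control mice and 26.1, 28.3, and 32.4 in *Slc39a8*-NSKO mice. The highest value was again in *Slc39a8*-NSKO mouse 3 and the lowest in control mouse 2, with the others mixed between them. The fold was 1.07, with an interval from 0.927 to 1.23 (adjusted p = 0.994 from edgeR's test).

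*Sorcs3* (chromosome 19, 48206025 to 48805505) encodes a sorting receptor of the VPS10 family. Its level was 21.5, 18.0, and 18.3 CPM in control mice and 22.3, 20.4, and 22.6 CPM in *Slc39a8*-NSKO mice. *Slc39a8*-NSKO mouse 2 lay below control mouse 1, and this single crossing kept the groups from separating. The fold of 1.13 was the farthest from 1 of the 9 genes in the upward direction, with an interval from 0.98 to 1.29 (unadjusted p = 0.0876, adjusted p = 0.968 from edgeR's test). Control mouse 1 weighs on this value: without it the log2 fold change was 0.27 (unadjusted p = 0.0142, adjusted p = 0.439 from edgeR's test).

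Among the transcription factors, *Tfap2b*, which encodes AP-2 beta on chromosome 1 from 19208914 to 19238576, was the highest. Control mice had 42.7, 46.8, and 51.9 CPM of it, and *Slc39a8*-NSKO mice had 46.9, 43.6, and 54.8 CPM. The spread within each genotype was wider than the difference between them, with a fold of 1.03 and an interval from 0.898 to 1.18 (adjusted p = 0.994 from edgeR's test).

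*Tfap2a*, on chromosome 13 (minus strand, 40715302 to 40738376), encodes AP-2 alpha. Its level was 9.75, 10.7, and 12.3 CPM in control mice and 9.51, 9.45, and 10.9 CPM in *Slc39a8*-NSKO mice. The lowest values were in *Slc39a8*-NSKO mice 1 and 2, and mouse 3 lay between the control values. The fold was 0.913, with an interval from 0.757 to 1.10 (adjusted p = 0.994 from edgeR's test). The gene *Gm26688* overlaps it on the other strand and held 5 to 14 counts per mouse, 4.97% of the counts of *Tfap2a* over all mice. Whether the counting used strand is not given in the sources used here.

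*Pax2* marks interneuron precursors and newly formed interneurons, with its locus on chromosome 19 (44756045 to 44837871). The values were 11.4, 8.21, and 10.4 CPM in control mice and 10.2, 9.24, and 9.99 CPM in *Slc39a8*-NSKO mice, so that all *Slc39a8*-NSKO values lay inside the control range. The fold was 0.975, with an interval from 0.799 to 1.19 (adjusted p = 0.995 from edgeR's test). With 118 to 236 counts per mouse it had the widest interval of the 9 genes.

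*Gad1* encodes GAD67 and lies on chromosome 2 from 70553072 to 70602014. Control mice had 458, 463, and 488 CPM, and *Slc39a8*-NSKO mice had 461, 478, and 469 CPM. The *Slc39a8*-NSKO values fell within the control range, and the means were 470 ± 16.0 and 469 ± 8.64 CPM (SD, n = 3 each). The fold was 0.999, with an interval from 0.928 to 1.08, the narrowest of the 9 (adjusted p = 0.999 from edgeR's test). Its antisense gene *Gad1os* held at most 4 counts in a mouse.

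*Gad2*, which encodes the synaptic form GAD65 and lies on chromosome 2 from 22622205 to 22693874, had 129, 118, and 119 CPM in control mice. In *Slc39a8*-NSKO mice it had 126, 122, and 116 CPM, with the highest and the lowest values of the 6 mice one in each genotype. The fold was 0.995, with an interval from 0.913 to 1.08 (adjusted p = 0.998 from edgeR's test).

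*Slc32a1*, which encodes VGAT and lies on chromosome 2 from 158610767 to 158615748, had 205, 212, and 215 CPM in control mice and 205, 218, and 226 CPM in *Slc39a8*-NSKO mice. *Slc39a8*-NSKO mice 2 and 3 lay above the control range and mouse 1 within it. The fold was 1.03, with an interval from 0.95 to 1.11 (adjusted p = 0.994 from edgeR's test). Summed over the 3 GABA genes, the level was 792 to 822 CPM in control and 792 to 818 CPM in *Slc39a8*-NSKO mice.

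**Figure D1:**
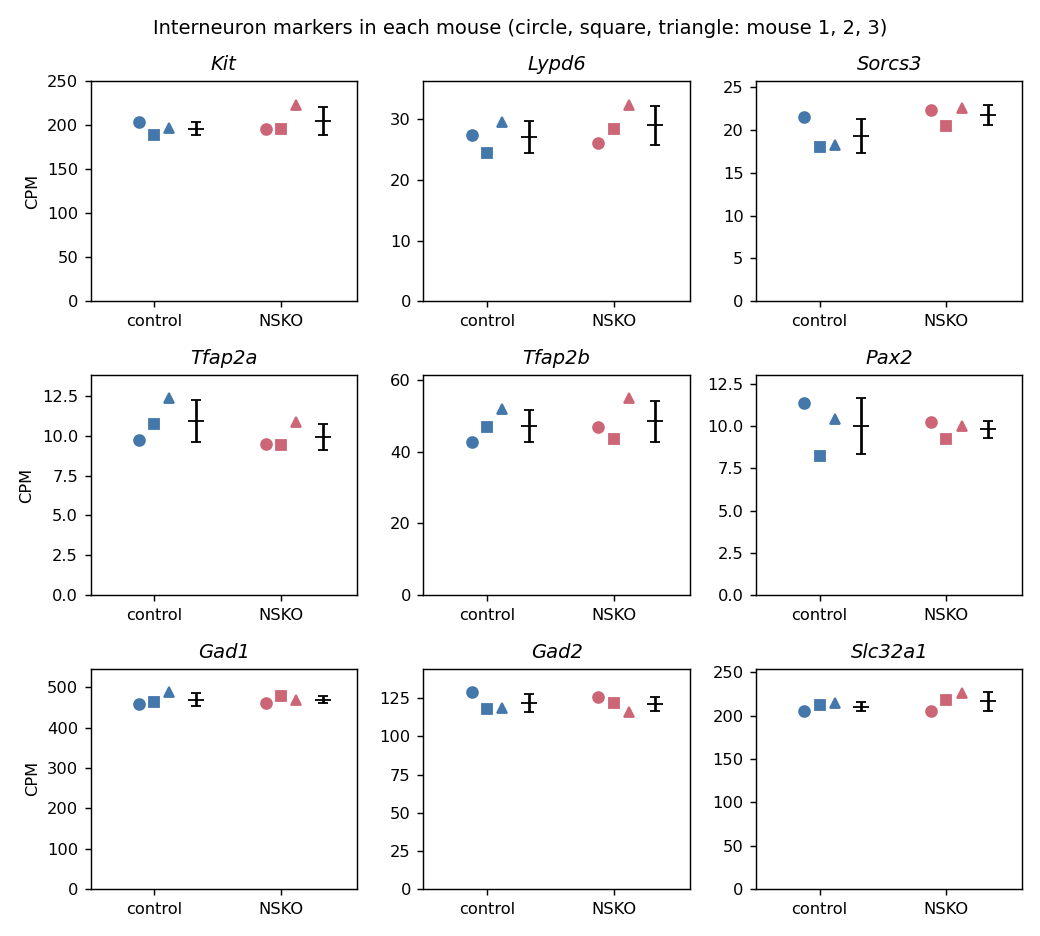
Each panel plots the CPM of 1 marker (vertical axis, from 0) in the 3 control and the 3 *Slc39a8*-NSKO mice, with the mean and SD as a black bar. The points of the genotypes overlap in every panel, from *Gad1*, the highest at 458 to 488 CPM, to *Pax2*, between 8.21 and 11.4 CPM.

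Mice differed from each other across the markers. *Slc39a8*-NSKO mouse 3 had the highest value for 5 of the 9 genes, namely *Kit*, *Lypd6*, *Sorcs3*, *Tfap2b*, and *Slc32a1*, but the lowest for *Gad2*. Control mouse 2 had the lowest value for 4 of them, namely *Kit*, *Lypd6*, *Sorcs3*, and *Pax2*, and control mouse 2 also had the lowest total of counts. Whether depth has a part in this was not tested. In control mice the coefficient of variation was lowest for *Slc32a1* (2.37%), *Gad1* (3.41%), *Kit* (3.65%), and *Gad2* (5.01%), and highest for *Pax2* (16.3%). In *Slc39a8*-NSKO mice it was lowest for *Gad1* (1.84%) and highest for *Tfap2b* (11.9%).

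Compared per kilobase of annotated exon, which allows levels of different genes to be set side by side, *Slc32a1* was highest, with 75.3 ± 1.78 CPM per kilobase in control mice (SD, n = 3). *Gad1* followed at 61.5 ± 2.10, and its range over the 6 mice was separate from that of *Slc32a1*. *Kit* (22.0 ± 0.805) and *Gad2* (20.8 ± 1.04) came next with ranges that overlapped, although *Kit* was above *Gad2* in 6 of 6 mice. *Tfap2b* (7.43 ± 0.723) and *Lypd6* (7.25 ± 0.694) could not be ordered, since *Tfap2b* was higher in 3 of 6 mice. *Sorcs3* stood at 2.70 ± 0.275, *Tfap2a* at 2.23 ± 0.267, and *Pax2* at 1.85 ± 0.301 CPM per kilobase, and the ranges of the last pair overlapped. The exon length is that of all annotated transcripts together, so a gene that uses a short transcript is understated.

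**Figure D2:**
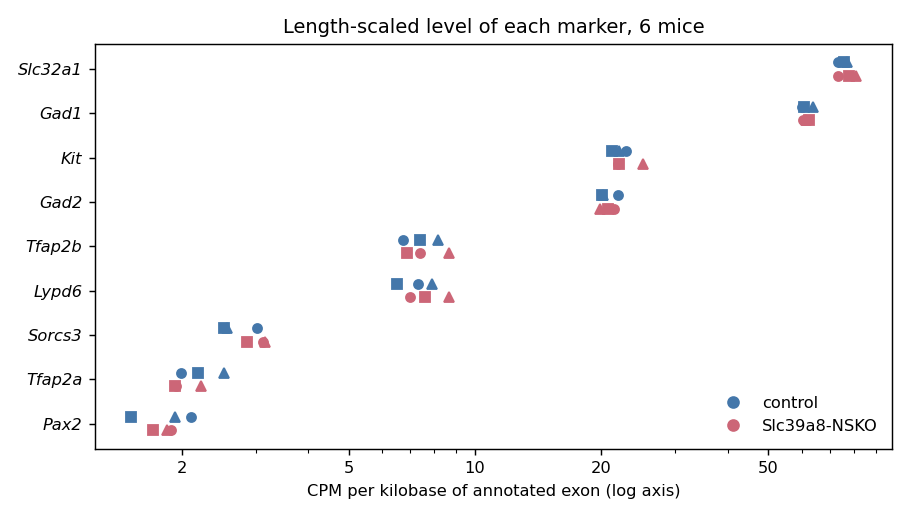
The level of each marker in CPM per kilobase of exon (horizontal log axis) is plotted for 6 mice, control in blue and *Slc39a8*-NSKO in red, ordered by the control mean. *Slc32a1* and *Gad1* are highest, at control means of 75.3 and 61.5, *Kit* and *Gad2* lie together at 22.0 and 20.8, and *Pax2* is lowest.

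The balance between related markers was also computed. The ratio of *Gad1* to *Gad2* per kilobase was 2.73, 3.01, and 3.17 in control mice and 2.82, 3.01, and 3.10 in *Slc39a8*-NSKO mice, which overlapped. The ratio of *Tfap2b* to *Tfap2a* was 3.39, 3.38, and 3.25 in control mice and 3.81, 3.57, and 3.89 in *Slc39a8*-NSKO mice, which did not overlap. Both genes had intervals that include no change, and this ratio was 1 of 8 that were computed. *Kit*, *Lypd6*, and *Sorcs3* together amounted to 3.31 ± 0.0736 CPM per 100 CPM of Purkinje cell markers in control and 3.29 ± 0.360 in *Slc39a8*-NSKO mice (SD, n = 3 each).

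Other genes of these cells and pathways were read from 12 lists with 95 genes in all, of which 77 were tested. A single one passed the threshold, against 0.098% of all genes tested. The lists were chosen with earlier results of these data known, so this count is a description. Of 5 further molecular layer interneuron genes, *Nxph1*, whose secreted product binds neurexins, fell. *Ptprk*, *Gjd2*, *Cdh22*, and *Pvalb* did not pass, with log2 fold changes between −0.11 (*Gjd2*) and 0.04 (*Ptprk*). *Pvalb* stood at 848 CPM per kilobase in control mice, above *Slc32a1* at 75.3 and the Purkinje cell gene *Pcp2* at 383. The cells these transcripts came from were not measured here, so *Pvalb* need not report on interneurons alone. *Nxph1* had 16.7, 12.9, and 13.9 CPM in control and 7.51, 7.80, and 7.76 CPM in *Slc39a8*-NSKO mice, a fold of 0.527 with an interval from 0.439 to 0.633 (adjusted p = 0.00621 from edgeR's test). Without *Slc39a8*-NSKO mouse 2 its adjusted p was 0.0524, with a log2 fold change of −0.93.

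Per 100 CPM of *Kit*, *Nxph1* was 8.20, 6.84, and 7.09 CPM in control and 3.84, 3.98, and 3.47 CPM in *Slc39a8*-NSKO mice. Since *Nxph1* was already known to be lower and *Kit* to differ little, this ratio restates the values of *Nxph1* on the scale of a marker and is given without a test.

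**Figure D3:**
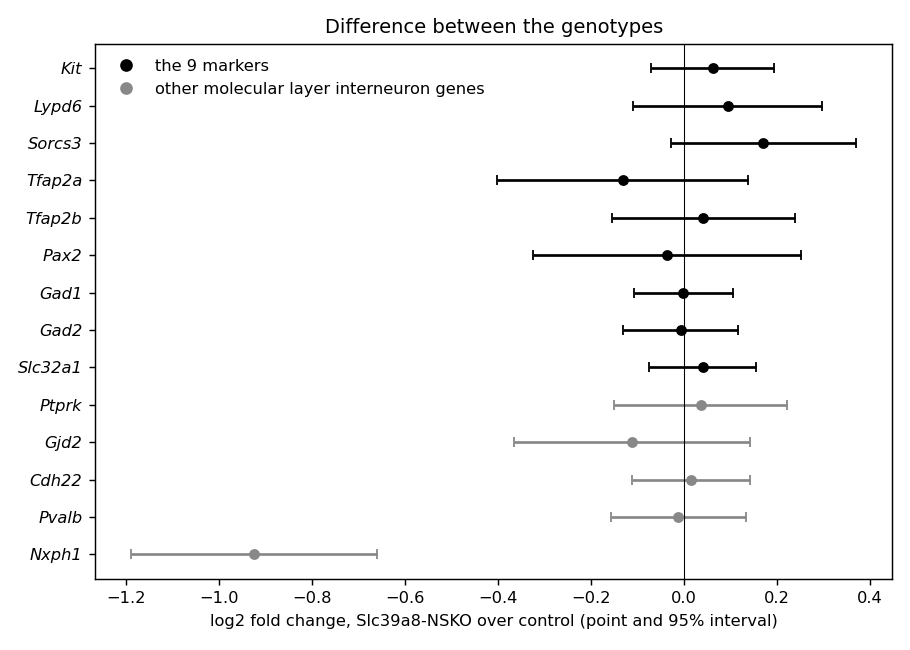
The log2 fold change of *Slc39a8*-NSKO over control (horizontal axis) is plotted with its 95% interval for the 9 markers (black) and 5 other molecular layer interneuron genes (grey). The intervals of the 9 markers all cross 0, and that of *Nxph1*, from −1.19 to −0.66, does not.

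Upstream and downstream of *Kit*, 0 of 10 genes passed. *Kitl*, the ligand that Purkinje cells present, had a fold of 1.03 with an interval from 0.927 to 1.14. The lowest unadjusted p values of this list belonged to the phosphatase gene *Ptpn11*, with a fold of 1.06, and the adaptor gene *Sh2b3*, with a fold of 1.07 (adjusted p = 0.993 for both from edgeR's test). Of 8 other AP-2 factors, coactivators, and inhibitors, 5 were tested and 0 passed. *Tfap2c*, *Tfap2d*, and *Tfap2e* had at most 3 counts in any mouse, so that *Tfap2a* and *Tfap2b* were the AP-2 genes with counts above that floor. *Kctd15*, which encodes an inhibitor of AP-2, had a fold of 0.889 (adjusted p = 0.954 from edgeR's test), with all *Slc39a8*-NSKO values below the control values, and the coactivator gene *Cited1* had a fold of 1.17 (adjusted p = 0.994).

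Of 10 other transcription factors of the GABAergic lineage, 6 were tested and 0 passed. *Skor2*, a corepressor gene of Purkinje cells, had the lowest unadjusted p of these, 0.0278, with a fold of 1.18 (adjusted p = 0.877 from edgeR's test), and *Lhx1* had a fold of 0.933 (adjusted p = 0.983). The progenitor gene *Ptf1a* had too few counts to be tested. Of 9 paralogs of *Sorcs3*, *Lypd6*, and *Pax2*, 7 were tested and 0 passed, the lowest unadjusted p values being those of *Sorcs2* (fold 1.09) and *Sorl1* (fold 1.04).

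GABA uptake, GABA breakdown, and glutamine supply showed 0 of 13 genes past the threshold. *Abat*, the GABA transaminase, had a fold of 1.04 with an interval from 0.944 to 1.14. *Slc38a1*, a glutamine transporter gene, had a fold of 1.07 (adjusted p = 0.968 from edgeR's test).

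Markers of other cells in the tissue were read in the same fit, and 0 genes passed in these lists. The summed Golgi and Purkinje layer interneuron markers were 155 to 169 CPM in control and 155 to 181 CPM in *Slc39a8*-NSKO mice, with the lowest unadjusted p values at *Sst* and *Grm2*, both with an adjusted p of 0.994 (edgeR's test). The summed Purkinje cell markers, cells that share the GABA genes, were 6960 to 7800 CPM in control and 7540 to 8190 CPM in *Slc39a8*-NSKO mice. Granule cell markers summed to 6090 to 6340 and 6060 to 6550 CPM. Bergmann glia and astrocyte markers summed to 2670 to 3050 CPM in control and 3120 to 3230 CPM in *Slc39a8*-NSKO mice, without overlap. All 7 of these markers had log2 fold changes above 0, as did all 7 paralogs tested and 8243 of the 16330 genes tested. *Gfap*, the astrocyte filament gene, had a fold of 1.32 (adjusted p = 0.301 from edgeR's test), and *Hopx* had a fold of 1.13 (adjusted p = 0.774). *Gfap* and *Itpr1* passed when no filter on low counts was used. Whether the glial levels have a part in the values of the 9 markers was not tested. In the Purkinje list, the calcium channel gene *Itpr1* had a fold of 1.16 (adjusted p = 0.885 from edgeR's test) and *Gng13* a fold of 1.05, and in the granule list *Fat2* had a fold of 0.948 and *Etv1* a fold of 1.04. *Adarb2*, the only forebrain interneuron gene with enough counts to be tested, had a fold of 0.979 (adjusted p = 0.995), and of 5 brainstem and nuclear genes *Th* and *Slc17a6* were tested, with folds of 0.938 and 1.05.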

How the data were processed

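RNA was isolated from the cerebellum of each mouse, reverse-transcribed with oligo-dT, and sequenced as paired-end reads, and the reads were aligned with STAR to an Ensembl mouse reference. The submitters' processing notes also name RSEM, DESeq2, and the build mm10, without versions. The authors deposited an expected count for each gene in each mouse, with no scaling for depth or gene length. The kit is named as directional in the labels and not in the methods. All columns were used, and 92 spike-in entries were left out.

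Here, expected counts were rounded and analysed in R 4.3.3 with edgeR 4.0.16 (TMM, filterByExpr, glmQLFit and glmQLFTest, no covariate) over 16330 genes with Benjamini-Hochberg adjustment. The 95% intervals use the standard error implied by the F statistic. Totals per mouse are given with the results, and counts of 3 or fewer were taken as the floor. Gene names, positions, and exon lengths come from GENCODE M21 (GRCm38). Upstream sequences come from RefSeq (GRCm38.p6), and all 9 markers matched. The fit was also run on simulated counts, with set changes larger than any difference of the 9 markers. That run does not measure power for differences of their size.

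The named genes are the 9 markers, *Slc39a8*, and, of each other list, genes past the threshold and the 2 with the lowest p. *Gabra6*, *Cbln1*, *Calb1*, *Pcp2*, *Dlx2*, *Kitl*, *Abat*, *Ptf1a*, other AP-2 and interneuron genes, and *Gm26688* and *Gad1os* were added for their roles. Some genes of these lists are not reported here. The markers and lists were chosen with earlier results of these data known. The methods give 3 mice per genotype, while a legend speaks of technical triplicates; in the latter case the p-values would describe technical spread only. Alternatives were DESeq2 1.42.0, limma-voom (limma 3.58.1), RLE, library size alone, other filters, each mouse left out, a replicate block, and a threshold of 0.1.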

Additional observations from a re-analysis of the deposited data

How the results depend on the processing

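No alternative called any of the 9 markers, and their adjusted p values lay between 0.439 and 1 over the 13 refits of each. The median log2 fold change of the 9 was between 0.0394 and 0.0463 under the other tests, scalings, filters, and the block, and between −0.0007 and 0.0665 with each mouse left out. Values near 0 changed sign. *Gad1* was at 0.0011 with DESeq2, 0.0035 with library size alone, and 0.0043 with no filter, and between −0.018 and 0.0289 with each mouse left out. With each mouse left out, *Kit* ranged from −0.0038 to 0.0961, *Tfap2b* from −0.0558 to 0.1179, *Pax2* from −0.1542 to 0.0746, and *Gad2* from −0.0316 to 0.0374. *Lypd6*, *Sorcs3*, *Tfap2a*, and *Slc32a1* kept their sign in all 13. The number of genes past the threshold in the whole table moved from 16 to 37 with DESeq2, 178 with no filter, 27 at an adjusted p below 0.1, and between 9 (without *Slc39a8*-NSKO mouse 2) and 38 (without control mouse 1) with each mouse left out. Of the other lists, 3 genes (*Nxph1*, *Itpr1*, and *Gfap*) were called with no filter, and 0 (without *Slc39a8*-NSKO mouse 2, where *Nxph1* had an adjusted p of 0.0524 from edgeR's test) to 2 (*Nxph1* and *Itpr1*, without control mouse 1) with each mouse left out. The causes were not tested.

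With the replicate number as a block, 41 genes passed in the whole table, 0 of the 9 markers, and 2 of the other lists (*Nxph1* and *Gfap*, the latter with an adjusted p of 0.0349). The deviations of mice with the same number correlated at 0.142, 0.116, and 0.0104, and those of mice with different numbers at −0.177 to 0.0665. The sources used here do not say whether the numbers are pairs, and the main fit did not use them. *Pax2* and *Tfap2a*, the markers with the fewest counts, had the widest intervals, and the parts of depth and of the spread between mice in this were not tested.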

Other observations

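The 5 genes whose log2 CPM followed the mean standardised profile of the 9 markers most closely over the 6 mice were *5830417I10Rik*, *Ubr7*, *Plppr1*, *Gm3227*, and *Grid1*, with Pearson's r between 0.976 and 0.987. The mice share their libraries between these genes and the markers, and 108 genes had an r above 0.9, so this is a description. *Plppr1* and *Gm3227* were low, at 1.49 CPM or less. *Grid1*, which encodes a glutamate receptor of the delta family, had 22.3, 18.1, and 23.1 CPM in control and 20.2, 20.9, and 25.1 CPM in *Slc39a8*-NSKO mice, and its adjusted p between the genotypes was 0.994 from edgeR's test.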
